A study of Mus musculus with 4 samples.

Results

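Lncenc1, Kis2, Platr3, Platr4, Platr10, Platr14, Platr20, Platr22 and Platr23 are long non-coding transcripts of mouse embryonic stem (ES) cells, and these 9 genes were taken by name from a table of 47633 genes. Their Ensembl identifiers are ENSMUSG00000078952 for Lncenc1, ENSMUSG00000086173 for Kis2, ENSMUSG00000084762 for Platr3, ENSMUSG00000097639 for Platr4, ENSMUSG00000099370 for Platr10, ENSMUSG00000086454 for Platr14, ENSMUSG00000086646 for Platr20, ENSMUSG00000097448 for Platr22 and ENSMUSG00000097229 for Platr23. They were selected on their FPKM values in these same libraries and on their names, so their levels and differences are given as a description. Calls from a fit over all genes are counted for them beside the share of all genes called, and nothing is read from those counts. RNA sequencing measured total RNA from cells of the 129S2/SvPas strain. The 4 libraries comprised 1 of cells kept for 2 days without leukaemia inhibitory factor (LIF), 1 labelled embryoid body (EB, an aggregate of differentiating cells) after 5 days without LIF, and 2 of ES cells. The ES cells were grown with LIF and serum on mitomycin C-treated embryonic fibroblasts of C57/BL6 mice, and the labels do not say whether fibroblasts were removed before RNA was taken. Neither derived library had a replicate, and the labels leave unsaid whether the ES pair were separate cultures. The cell type field of every library reads 21-24, which the labels do not explain.

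Long non-coding RNAs are transcripts that are not translated, and many are made in only a few cell types. ES cells are held in a naive pluripotent state by LIF, which acts through STAT3, and by a network of transcription factors that includes POU5F1, NANOG, SOX2 and ESRRB. Platr stands for pluripotency-associated transcript, a numbered series named because the RNAs decline when ES cells differentiate. Lncenc1 is described in mouse as an RNA that supports the naive state and the expression of glycolysis genes, Platr10 as a chromatin-bound RNA of the pluripotency network, Platr22 as an RNA that promotes super-enhancer activity, and Platr4 as an RNA needed for mesoderm and endoderm differentiation. Kis2 takes its name from a retroviral integration site in mouse leukaemias and lies at the start of the miR-106a-363 cluster, whose miRNAs belong to the families of the miR-17-92 oncogenic cluster.

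Kis2 was the transcript with the lowest levels relative to ES cells in both derived libraries, and the sequence around it is given here because of what the transcript unit holds. On the mm10 build it lies on the minus strand of chromosome X, 52742563 to 52744960, with 4 annotated transcripts and 2135 nt of exons. Mir106a overlaps its last 5 nt, Mir18b begins 150 nt and Mir363, the last of the cluster, 796 nt past its end, all on the same strand. The mature miRNAs of the cluster's 6 genes, from RefSeq on build GRCm38.p6, are printed below for the commonly used arm of each, 5′ to 3′, with the seed (bases 2 to 8) in capitals.
miR-106a-5p: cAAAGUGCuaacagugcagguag
miR-18b-5p: uAAGGUGCaucuagugcuguuag
miR-20b-5p: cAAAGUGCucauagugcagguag
miR-19b-3p: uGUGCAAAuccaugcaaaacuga
miR-92a-3p: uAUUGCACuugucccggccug
miR-363-3p: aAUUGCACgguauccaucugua
The seed AAAGUGC was shared by miR-106a-5p and miR-20b-5p, and AUUGCAC by miR-92a-3p and miR-363-3p, while miR-18b-5p and miR-19b-3p each had a seed of their own among these 6. All 6 miRNA genes were listed at 0 FPKM in all 4 libraries. FPKM is the number of fragments per unit of exon length and of library total. A listing at 0 for genes this short can be a failed estimate, so nothing on the mature miRNAs was read from it.

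**Figure D1:**
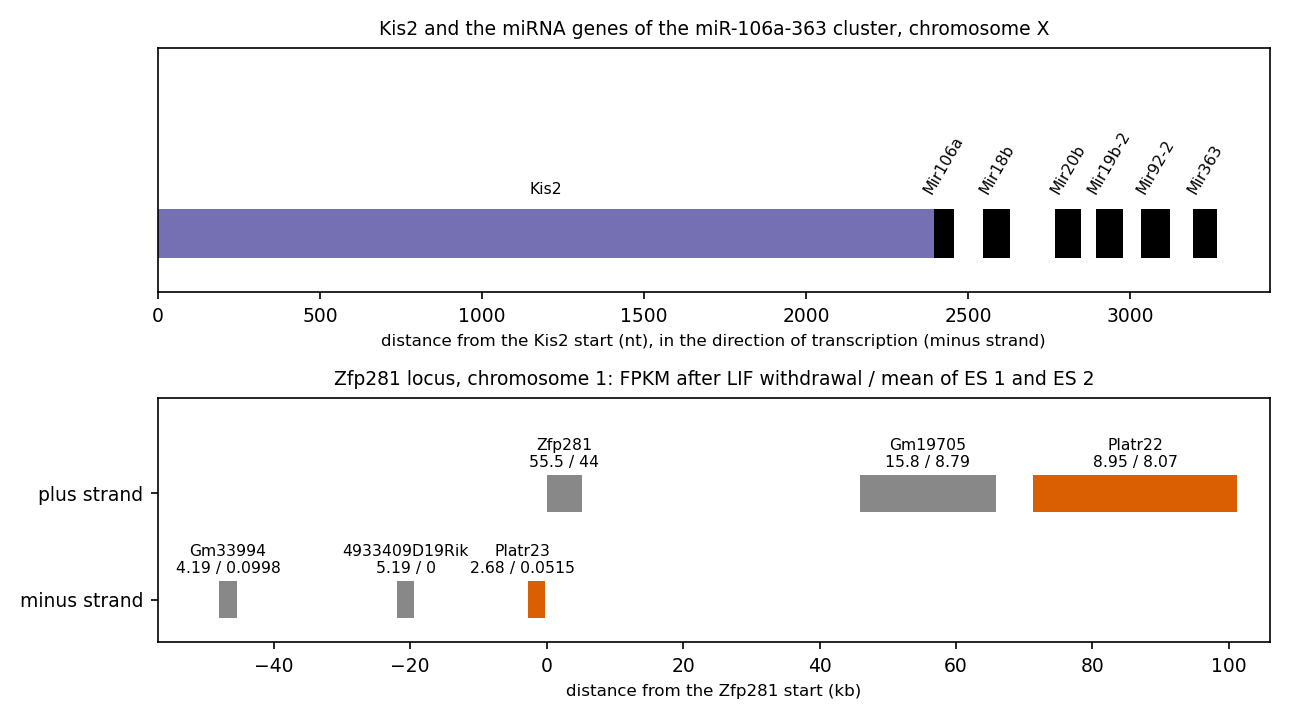
Upper panel, Kis2 (violet) and the 6 miRNA genes of the miR-106a-363 cluster (black) by distance in nt from the Kis2 start. Lower panel, genes around Zfp281 on chromosome 1 by distance in kb from its start and by strand, with FPKM after LIF withdrawal and the mean of both ES libraries under each name. The 3 minus-strand genes are at 2.68, 5.19 and 4.19 FPKM after LIF withdrawal and near 0 in ES cells.

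RefSeq start-site windows (250 bases before and 50 after the start) were found for 7 of the 9 transcripts. Those of the 3 transcripts that were below both ES libraries after LIF withdrawal are shown, 5′ to 3′ on the transcribed strand of build GRCm38.p6, with the transcribed bases in capitals. They are Kis2 at chrX:52744544-52744843, minus strand, Lncenc1 at chr13:97434720-97435019, plus strand, and Platr10 at chr3:75655682-75655981, minus strand.
Kis2: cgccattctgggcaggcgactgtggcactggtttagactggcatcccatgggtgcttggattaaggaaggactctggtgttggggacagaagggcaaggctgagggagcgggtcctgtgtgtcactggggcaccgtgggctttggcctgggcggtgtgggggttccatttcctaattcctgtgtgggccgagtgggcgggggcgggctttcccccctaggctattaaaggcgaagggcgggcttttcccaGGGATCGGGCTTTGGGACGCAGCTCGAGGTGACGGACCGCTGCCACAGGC
Lncenc1: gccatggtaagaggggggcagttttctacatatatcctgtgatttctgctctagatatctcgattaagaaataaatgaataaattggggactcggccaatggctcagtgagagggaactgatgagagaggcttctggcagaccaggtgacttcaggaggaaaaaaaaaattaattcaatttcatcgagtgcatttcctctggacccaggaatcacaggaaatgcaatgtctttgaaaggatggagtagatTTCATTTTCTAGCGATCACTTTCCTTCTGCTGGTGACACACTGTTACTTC
Platr10: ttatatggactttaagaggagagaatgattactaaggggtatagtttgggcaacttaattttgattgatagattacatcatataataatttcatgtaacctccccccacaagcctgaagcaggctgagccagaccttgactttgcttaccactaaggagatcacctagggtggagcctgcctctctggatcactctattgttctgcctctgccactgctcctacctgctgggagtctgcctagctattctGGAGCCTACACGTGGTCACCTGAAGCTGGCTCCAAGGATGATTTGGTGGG
The Kis2 window had 63.3% G and C, the Lncenc1 window 42.3% and the Platr10 window 47.0%, against a median of 52.7% over 32851 windows. A search of both strands for the STAT element TTCNNNGAA found it in 0 of the 7 windows, against 8.30% of all windows. The octamer ATGCAAAT (1.74% of all windows), the Esrrb element TCAAGGTCA (0.423%) and the Klf element GGGNGTGG (17.6%) were likewise in 0 of the 7. With 7 windows and shares this low, 0 matches cannot show that the STAT element or these 3 are lacking. The Sox element CTTTGT was in the windows of Platr3, Platr14 and Platr22, against 18.7% of all windows. A match is a run of letters and not a measured binding site. The RefSeq starts of Platr3, Kis2 and Platr14 lie 2384, 367 and 296 nt from the outermost start in the annotation used for lengths.

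The libraries held about 18.3 M fragments after LIF withdrawal, 26.7 M in EB, and 31.8 M and 26.7 M in ES cells, as implied by the smallest FPKM steps. At these depths 3 fragments in 1 kb of exons correspond to 0.164, 0.112, 0.0944 and 0.112 FPKM, which covers counting error only. Over the 15676 genes tested, those reaching 1 FPKM in any library, the ES pair correlated at r = 0.956 on log2(FPKM + 1), across genes, which are not independent replicates, and 2046 of these genes were at least 2-fold apart between the ES libraries. Among 6808 strand-clear genes, those outside every opposite-strand gene body with at least 1000 nt of exons, r was 0.997 and 108 were 2-fold apart, so the ES libraries also differed mostly outside this set. Of 670 genes at 1 FPKM or more after LIF withdrawal and at 0 in both ES libraries, 88.1% overlapped a gene on the opposite strand, against 21.2% of 66 such genes in EB and 44.4% of all tested genes with a known position. Whether the authors counted by strand is not given in the sources used here. ES markers were present in every library: Pou5f1, which encodes a core pluripotency factor, was at 455 FPKM after LIF withdrawal, 461 in EB and 480 ± 11.9 in ES cells (SD, n = 2). The 8 markers of differentiating cells (T, Eomes, Mixl1, Gata4, Gata6, Sox17, Pax6 and Sox1) summed to 7.40 FPKM after LIF withdrawal, 4.19 in EB, and 7.31 and 6.40 in ES cells, so their sum was no higher in EB than in ES cells, whatever its label. The 8 fibroblast markers (Col1a1, Col1a2, Col3a1, Postn, Dcn, Lum, Thy1 and Pdgfrb) summed to 61.5, 38.3, and 23.3 and 22.6 FPKM in that order, with Lum at 0.493 FPKM or less in every library. The part of the fibroblast markers in the differences below was not tested, and fewer cells of a type and less RNA per cell cannot be told apart in bulk RNA.

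The position of each transcript on both strands was checked first. The exons of all 9 transcripts had 0% of their length covered by exons of the opposite strand, and 7 of the 9 lay outside every gene body on that strand. Across all tested long non-coding genes, 68.2% of 1108 overlapped an opposite-strand gene. Lncenc1 and Platr4 each hold a processed pseudogene of the opposite strand in an intron. Gm8756 lies opposite Lncenc1, at 1.51 FPKM after LIF withdrawal, 1.33 in EB, and 0.747 and 0.291 in ES cells. Gm6069 lies opposite Platr4, at 8.28 FPKM after LIF withdrawal and 0 in EB and both ES libraries, the pattern of an opposite-strand gene described above. Among the other transcripts, the nearest opposite-strand gene lay 55 nt from Platr20 (Gm12569), 251 nt from Platr23 (Zfp281), 3951 nt from Platr10 (Serpini1), 12166 nt from Platr14 (Gm13885), 31368 nt from Platr22 (Gm22132), 34111 nt from Platr3 (Gm14211) and 46240 nt from Kis2 (Ccdc160). A comparison of the 9 genes' transcripts with all annotated transcripts at 95% identity over at least 100 nt found matching stretches in other genes for Platr14 alone. They lay in 5 other genes, the longest of 107 nt, and covered 34.1% of its most affected transcript, so reads there could be shared.

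In ES cells the transcripts spanned more than 3 orders of magnitude per unit length. Platr10 was highest at 136 ± 11.1 FPKM (SD, n = 2), in place 13 by ES level among 1108 long non-coding genes. Lncenc1 followed at 33.9 ± 0.295 FPKM, in place 32. Kis2 at 17.7 ± 0.455 and Platr14 at 17.5 ± 0.986 FPKM had overlapping ES values and could not be ordered. Platr4 was at 13.4 ± 1.22 and Platr22 at 8.07 ± 0.0129 FPKM. Platr3 at 2.02 ± 0.947 and Platr20 at 1.40 ± 0.126 FPKM overlapped. Platr23 was lowest at 0.0515 ± 0.0162 FPKM, resting on about 3 and 4 fragments, in place 746. The remaining neighbours in this order did not overlap between the 2 ES libraries. The name of Platr23 as a transcript of pluripotent cells thus goes against its ES level here, while the other 8 were at 1 FPKM or more in every library.

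**Figure D2:**
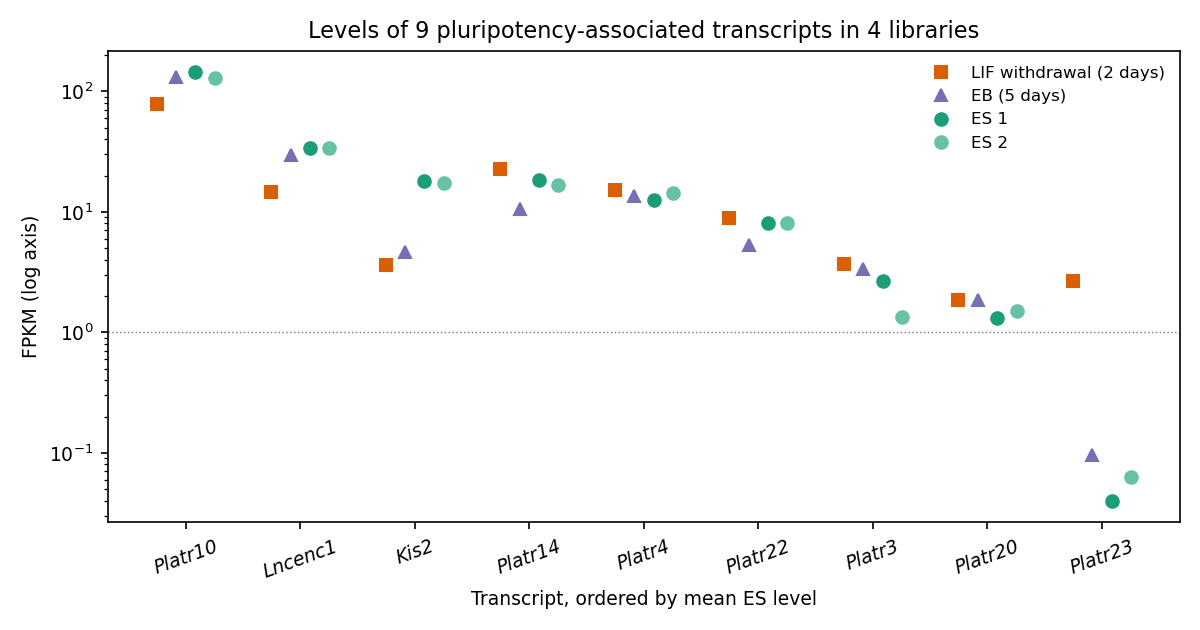
FPKM (log axis) of the 9 transcripts, 1 point per library: LIF withdrawal (square), EB (triangle), ES 1 and ES 2 (circles), with 1 FPKM as a dotted line. Kis2 lies at 3.65 and 4.64 FPKM in the derived libraries and at 18.0 and 17.4 in the ES libraries, and Platr23 reaches 1 FPKM after LIF withdrawal alone.

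Kis2, Lncenc1 and Platr10 were below both ES libraries after 2 days without LIF. Kis2 was at 3.65 FPKM after LIF withdrawal and 4.64 FPKM in EB, against 18.0 and 17.4 FPKM in ES 1 and ES 2. Both derived libraries were thus far below both ES libraries, at 20.6% and 26.2% of the ES mean. The log2(FPKM + 1) difference from ES was -2.01 after LIF withdrawal and -1.73 in EB, against a median of 0.04 and -0.01 over all 15676 tested genes. By exon length these levels correspond to about 142 and 265 fragments in LIF withdrawal and EB, and 1225 and 993 in ES cells. Ccdc160, the nearest protein-coding gene on the other strand, was also below both ES libraries, at 0.560 FPKM after LIF withdrawal and 0.373 in EB, against 1.66 in both ES libraries.

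Lncenc1, the RNA tied to the naive state and glycolysis genes, was at 14.6 FPKM after LIF withdrawal and 29.4 FPKM in EB, against 34.1 and 33.7 FPKM in ES cells. The library without LIF for 2 days stood apart at 43.0% of the ES mean, while EB was at 86.7%, below both ES libraries by more than they differed from each other. The log2(FPKM + 1) differences were -1.16 and -0.20. Lncenc1 lies on chromosome 13, 97434970 to 97497007, plus strand, with 3 transcripts over 62038 nt and 3301 nt of exons. Its nearest protein-coding gene, Enc1, lies 181936 nt away on the same strand and was at 59.7 FPKM after LIF withdrawal, 46.3 in EB, and 36.8 and 37.0 in ES cells, so Enc1 was above ES cells in both libraries in which Lncenc1 was below.

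Platr10, on chromosome 3 (75647446 to 75655731, minus strand, 1745 nt of exons), was at 78.0 FPKM after LIF withdrawal and 132 FPKM in EB, against 144 and 129 FPKM in ES cells. After LIF withdrawal it was at 57.2% of the ES mean, a log2(FPKM + 1) difference of -0.80, and in EB it lay between the ES libraries. Serpini1, which encodes a serine protease inhibitor of neurons and ends 3951 nt from Platr10 on the other strand, was at 5.88 FPKM after LIF withdrawal, 9.89 in EB, and 7.44 and 7.32 in ES cells.

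Platr14 and Platr22 lay on different sides of ES cells in the derived libraries. Platr14 (chromosome 2, 104559163 to 104571429, plus strand, 6 transcripts) was at 22.5 FPKM after LIF withdrawal and 10.5 FPKM in EB, against 18.2 and 16.8 FPKM in ES cells. It was above both ES libraries in LIF withdrawal, by 0.35 on the log2(FPKM + 1) scale, and below both in EB, with a difference of -0.69. Cstf3, a subunit gene of the cleavage stimulation factor that lies 19094 nt downstream on the same strand, was at 66.2 and 62.9 FPKM in LIF withdrawal and EB, and at 68.2 and 66.5 FPKM in ES cells. Platr22 (chromosome 1, 136696211 to 136726142, plus strand, 1 transcript) was at 8.95 FPKM after LIF withdrawal and 5.28 FPKM in EB, against 8.08 and 8.06 FPKM in ES cells. Its differences were 0.13 and -0.53 on the same scale, and EB was at 65.3% of the ES mean. Its nearest protein-coding gene is Zfp281, 66158 nt upstream on the same strand, whose values are given with Platr23.

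Platr4, Platr20 and Platr3 were close to ES cells or spread widely between the ES libraries. Platr4, the RNA linked to mesoderm and endoderm differentiation (chromosome 3, 41484024 to 41493192, minus strand), was at 15.3 FPKM after LIF withdrawal and 13.4 FPKM in EB, against 12.5 and 14.2 FPKM in ES cells, so EB lay between the ES libraries and LIF withdrawal was above the higher of them by less than they differed from each other. Jade1, a chromatin reader gene and the nearest protein-coding gene, was at 149 and 152 FPKM in LIF withdrawal and EB, and at 152 and 158 FPKM in ES cells. Platr20 (chromosome 11, 51189833 to 51220418, minus strand) was at 1.86 FPKM after LIF withdrawal and 1.85 FPKM in EB, against 1.31 and 1.49 FPKM in ES cells. The derived libraries were thus alike and above both ES libraries, on about 37 and 53 fragments in LIF withdrawal and EB, and 45 and 43 in ES cells. Gm12569, a gene annotated as protein-coding that starts 55 nt from the Platr20 start on the other strand, was at 5.68 and 3.63 FPKM in LIF withdrawal and EB, and at 3.93 and 4.64 FPKM in ES cells. Platr3 (chromosome 2, 135648907 to 135652063, plus strand, 412 nt of exons) was at 3.69 FPKM after LIF withdrawal and 3.35 FPKM in EB, against 2.69 and 1.35 FPKM in ES cells. Its ES values differed by 1.99-fold on about 35 and 15 fragments, more than either derived library differed from ES 1. Plcb4, a phospholipase C gene that starts 6948 nt past the Platr3 end on the same strand, was at 26.6 and 18.0 FPKM in LIF withdrawal and EB, and at 21.0 and 20.7 FPKM in ES cells.

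Platr23 had the highest level relative to ES cells. It was at 2.68 FPKM after LIF withdrawal and 0.0951 FPKM in EB, against 0.0400 and 0.0629 FPKM in ES 1 and ES 2. Since it has 1 transcript of 2439 nt, these values convert to about 119 fragments in LIF withdrawal and 6 in EB, against 3 and 4 in ES cells. The exact 95% Poisson intervals of these numbers, for counting error only, were 98.6 to 142 in LIF withdrawal and 2.2 to 13.1 in EB, against 0.619 to 8.77 and 1.09 to 10.2 in ES cells. EB and ES cells overlapped. Platr23 reached the 1 FPKM needed for testing only through the LIF withdrawal library and was selected on these values, so its higher level there is a description. The log2(FPKM + 1) difference was 1.81 after LIF withdrawal and 0.06 in EB, on a scale that compresses the differences of low genes. Platr23 lies on chromosome 1, 136622098 to 136624650, minus strand, and its start is 251 nt from that of Zfp281, a zinc finger factor of ES cells transcribed the other way. Zfp281 was at 55.5 FPKM after LIF withdrawal and 46.4 in EB, against 43.6 and 44.4 FPKM in ES cells. The map of the Zfp281 locus shows 2 further minus-strand long non-coding genes that go with Platr23, chosen after their values were seen. They are 4933409D19Rik, 16630 nt beyond it, at 5.19 FPKM after LIF withdrawal, 0.0262 in EB and 0 in both ES libraries, and Gm33994, 42621 nt beyond it, at 4.19, 0.0641, and 0.0405 and 0.159 FPKM. Among all tested long non-coding genes 53.3% were at least 2-fold above both ES libraries after LIF withdrawal, against 4.6% in EB, while 3.88% and 4.96% were at least 2-fold below, and the part of the strand pattern of that library in these values was not tested.

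After LIF withdrawal 6 of the 9 transcripts were above both ES libraries, beside 48.4% of all tested genes, and 3 below both, beside 36.6%. In EB 3 were above both (37.6%), 4 below both (42.9%) and 2 between. By size, counting FPKM at least 2-fold from both ES libraries, 2 of the 9 transcripts were lower after LIF withdrawal (Kis2 and Lncenc1), beside 2.65% of all 15676 genes, and 1 was higher (Platr23), beside 12.3%. In EB 1 was lower (Kis2), beside 2.53%, and 0 were higher, beside 3.58%. With limma over all genes, with calls defined by a log2 difference of 1 or more and an adjusted p (Benjamini-Hochberg) under 0.05, the same 2 were lower (0.357% of all genes) and the same 1 higher (7.32%) after LIF withdrawal, beside 7.67% called in either direction. In EB limma called 0 of the 9, beside 62 genes called, 0.396%. At unadjusted p under 0.05 there were 4 of the 9 in EB, beside 27.7% of all genes, and 4 of the 9 after LIF withdrawal, beside 37.2%. On simulated data this fit called few or none of the genes given a change in the place of EB. Those genes were above 5 FPKM in ES cells, so LIF withdrawal, Platr3, Platr20 and Platr23 were not covered. In neither comparison is a gene that the fit does not call shown to be unchanged. Among the strand-clear genes 6 of the 9 were fitted. There limma called Platr23 higher (2.44% of these genes) and Kis2 lower (0.602%) after LIF withdrawal, and Kis2 lower (0.778%) and 0 of the 6 higher (1.53%) in EB. Since the transcripts were picked with these values known, nothing is read from these counts. Their median log2(FPKM + 1) difference was 0.19 after LIF withdrawal and -0.04 in EB, beside 0.04 and -0.01 over all 15676 genes. Over the 1108 long non-coding genes it was 0.83 and 0.00. Of these 1108, 68.2% overlapped an opposite-strand gene, against 22.2% of the 9. A gene could also enter the 1108 through its LIF withdrawal value alone, so they are not a like background.

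**Figure D3:**
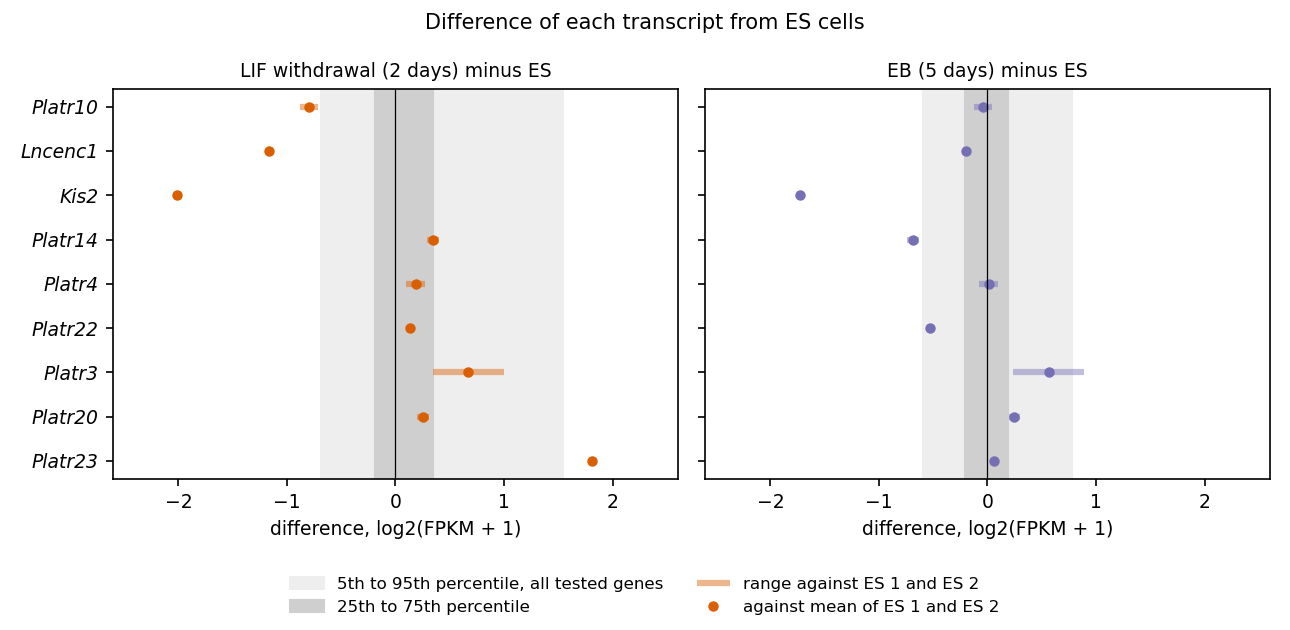
Difference in log2(FPKM + 1) from the mean of the ES pair for each transcript (points), with the range against ES 1 and ES 2 (bars), after LIF withdrawal (left) and in EB (right). Grey bands span the 25th to 75th and 5th to 95th percentiles of 15676 tested genes. Kis2 lies below the 5th percentile in both panels, Lncenc1 and Platr10 after LIF withdrawal alone and Platr14 in EB alone, and Platr23 lies above the 95th after LIF withdrawal alone.

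The other numbered Platr genes were read beside these. Of 25 such names 23 were in the table and 13 reached 1 FPKM in any library. Limma called 0 of the 13 in either comparison, with 8 at unadjusted p under 0.05 after LIF withdrawal (37.2% of all genes) and 3 in EB (27.7%). By size 5 of the 13 were higher after LIF withdrawal, beside 12.3% of all genes and 53.3% of long non-coding genes, and 0 were lower. The 5 were Platr2, Platr11, Platr25, Platr26 and Platr28. They lie outside every opposite-strand gene body, as do all of the 13 except Platr12 and Platr21, so this does not set the 5 apart. Platr2, Platr11 and Platr26 have 521, 388 and 641 nt of exons and are not in the strand-clear set. The part of the strand pattern in these values was not tested. In EB 1 was higher, beside 3.58% and 4.6%, and 0 were lower. The 13 had a median log2(FPKM + 1) difference of 0.62 after LIF withdrawal and 0.15 in EB. The most abundant, Platr16, was at 15.0 FPKM after LIF withdrawal and 29.5 in EB, against 41.2 and 21.0 in ES cells, so EB lay between the ES libraries, which were themselves apart. Platr21 was at 11.4 and 7.44 FPKM in LIF withdrawal and EB, and at 9.66 and 12.1 FPKM in ES cells.

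**Figure D4:**
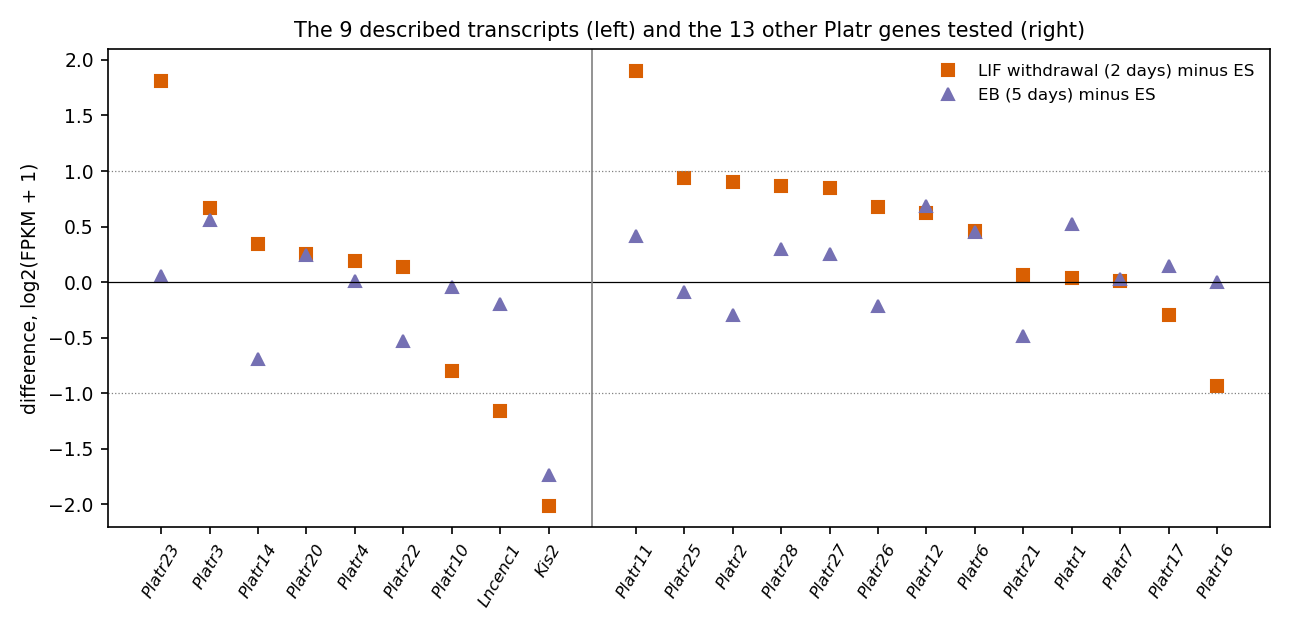
Difference in log2(FPKM + 1) from the ES mean after LIF withdrawal (squares) and in EB (triangles), for the 9 described transcripts left of the line and the 13 other Platr genes tested right of it, dotted lines at 1 and -1. Of the 13, Platr11 lies highest after LIF withdrawal and Platr16 lowest.

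The protein-coding genes of the pluripotency network were read by size, as FPKM at least 2-fold from both ES libraries. By this rule 12.3% of all tested genes were higher and 2.65% lower after LIF withdrawal, and 3.58% and 2.53% in EB. Of 16 general pluripotency genes 0 were higher or lower by size after LIF withdrawal. In EB 0 were higher and 1 was lower, Lin28a, at 32.1 FPKM against 76.2 and 77.3 in ES cells. The 16 had median log2(FPKM + 1) differences of 0.12 after LIF withdrawal and 0.03 in EB. The most abundant was Trim28, a corepressor gene, at 850 FPKM after LIF withdrawal, 825 in EB, and 743 and 735 in ES cells, followed by Pou5f1 as given above. Of 16 naive pluripotency genes tested 0 were higher and 1 lower by size after LIF withdrawal. The lower one was Klf2, at 14.2 FPKM against 39.7 and 36.2 in ES cells. In EB 2 were higher and 0 lower. They were Tcl1, at 14.9 FPKM against 3.56 and 4.22, and Tbx3, at 34.2 FPKM against 15.8 in both ES libraries. The medians of the 16 were -0.03 after LIF withdrawal and 0.38 in EB. The most abundant were Dppa5a, an RNA-binding protein gene, at 805 FPKM after LIF withdrawal, 1140 in EB, and 561 and 577 in ES cells, and Zfp42, a zinc finger marker of the naive state, at 195, 233, and 183 and 198 FPKM. Of 14 formative and primed epiblast genes 3 were higher and 0 lower by size after LIF withdrawal, and 3 were higher and 1 lower in EB. Otx2, a homeobox factor, was at 25.7 FPKM after LIF withdrawal, where limma called it higher. It was at 24.5 FPKM in EB, against 9.12 ± 0.149 in ES cells. The most abundant of the 14 in ES cells were Etv5 and Dnmt3b, an ETS factor gene and a DNA methyltransferase gene. Etv5 was at 114 FPKM after LIF withdrawal, 134 in EB and 126 ± 4.37 in ES cells, and Dnmt3b at 91.7 FPKM after LIF withdrawal, 69.1 in EB and 96.8 ± 4.14 in ES cells. Of 7 fibroblast markers tested, 2 were higher by size after LIF withdrawal and 3 in EB, and 0 were lower in either. Dcn and Postn were the higher ones after LIF withdrawal, at 6.68 and 22.7 FPKM against 0.679 ± 0.0224 and 2.59 ± 0.286 in ES cells. The collagen genes Col1a1 and Col1a2 were the most abundant of the 7 in ES cells. Col1a1 was at 12.1 FPKM after LIF withdrawal, 4.47 in EB and 7.0 ± 0.408 in ES cells, and Col1a2 at 7.13 FPKM after LIF withdrawal, 4.68 in EB and 5.71 ± 0.465 in ES cells. In EB, Dcn was at 11.1 FPKM, against 0.679 ± 0.0224 in ES cells, Pdgfrb at 4.8, against 1.51 ± 0.163, and Col3a1 at 4.31, against 1.12 ± 0.204, and limma called these 3 higher among strand-clear genes. Postn was at 2.66 FPKM in EB. Of 3 markers of differentiating cells tested, 1 was higher and 1 lower by size after LIF withdrawal, and 0 were higher and 1 lower in EB. The lower one was Pax6 after LIF withdrawal. In EB it was T, at 0.127 FPKM against 1.0 and 1.14 in ES cells. Eomes, a T-box factor, was the higher one after LIF withdrawal, at 3.72 FPKM against 1.32 ± 0.00631 in ES cells. Otx2, Eomes, Lin28a and Tbx3 each lie over a gene of the opposite strand. The most abundant of the 3 was Pax6, a paired-box factor gene, at 0.792 FPKM after LIF withdrawal, 1.52 in EB and 2.32 ± 0.163 in ES cells, followed by Eomes, at 1.26 FPKM in EB.

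Genes with the most similar profile were ranked by Euclidean distance over the 4 libraries in log2(FPKM + 1), each gene set relative to its ES mean, among 4796 strand-clear genes at 5 FPKM or more (4795 where the transcript itself is one of these). Kis2 had no close match: the nearest were Fosb, Rian and Dlk1, at distances of 0.673, 0.796 and 0.880. The nearest to Lncenc1 were Mgat4a, Hist1h2be and Nfu1, at 0.117, 0.133 and 0.150, with 3 candidates under 0.2. For Platr10 they were Tspyl1, Lpar4 and Gdap10, at 0.0847, 0.105 and 0.127, and for Platr14 Rarg, Tmem70 and Bcap29, at 0.0493, 0.0805 and 0.0883. Platr22 had Chchd5, Jade2 and Ntpcr at 0.0419, 0.0452 and 0.0564. Platr4 had 604 candidates under 0.2, led by Morn4, Ddx19a and Hdac6 at 0.0126, 0.0130 and 0.0139, the profile of a gene with little difference between libraries.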

How the data were processed

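The deposited table gives FPKM per gene and library, as the authors computed it. The submitters' processing notes name Trimmomatic 0.36, STAR, Cufflinks and the mm10 build. Their roles, the annotation and the strand setting were not stated in the labels. FPKM depends on exon length and library total, and a few very abundant transcripts can depress the rest. The 10 most abundant genes made up 44.7% of summed FPKM after LIF withdrawal, 17.4% in EB, and 15.5% and 9.80% in ES cells. No rescaling was applied, since median-of-ratios factors were 1.03, 0.982, 0.992 and 1.00 in that order.

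GENCODE mouse release 21 (mm10) supplied positions, exon lengths and overlaps, matched by identifier without version for 47219 of the 47633 genes. Depth was inferred by taking 1 fragment as the commonest small product of FPKM and exon length among single-transcript genes of at least 3000 nt. Fragment numbers of genes with several transcripts are approximate, and all intervals cover counting error alone.

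The 15676 tested genes were fitted on log2(FPKM + 1) by limma 3.58.1 (R 4.3.3) in 1 model of all 4 libraries with a trend on mean expression. Its 1 residual degree of freedom is the ES pair, so each lone derived library is assumed to vary as ES cells did, and p-values measure only the spread between the ES samples, which could be technical. Tested on simulated data, the fit over all genes returned the planted differences but called few or none of them, and in some draws also called genes with no change. The fit over strand-clear genes called most of the planted differences. These were planted in the place of EB alone and only in genes above 5 FPKM in ES cells. Neither result therefore covers Platr3, Platr20 or Platr23. Strand-clear genes lie outside every opposite-strand gene body, have exons of 1000 nt or more in sum, and are coding or long non-coding. Alternatives changed the pseudocount, filter, scaling, gene set, libraries in the model and ES library.

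The transcripts and gene lists were chosen with earlier results of these data known. Genes named are the 9 transcripts, genes overlapping them on the opposite strand, their nearest protein-coding genes, and per list and comparison up to 4 genes that limma called, or else the 2 most abundant. The 3 nearest profiles are named for each transcript at 5 FPKM or more, without predicted genes. The search for similar sequences and the long non-coding neighbours were added after the values were seen. Lin28a, Klf2, Tcl1, Tbx3, T, Lncpint, Sox2ot, Platr12 and the other Platr genes higher by size were also named after the values were seen.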

Additional observations from a re-analysis of the deposited data

Results flagged for a closer look

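For Platr14 and Platr22 the derived libraries lay on opposite sides of both ES libraries. The log2(FPKM + 1) difference of Platr14 was 0.35 after LIF withdrawal and -0.69 in EB, and that of Platr22 was 0.13 and -0.53. Each derived group is 1 library and both comparisons use the same ES pair, so the difference between them was not tested.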

How the results depend on the processing

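The 18 differences of the 9 transcripts were recomputed with a pseudocount of 0.1, with median-of-ratios scaling and without either ES library, and 16 kept their direction throughout. The exceptions were Platr10 and Platr4 in EB, which lay between the ES libraries and changed sign without ES replicate 1, to ranges of -0.12 to 0.04 and -0.08 to 0.10. With a pseudocount of 0.1 the difference of Platr23 after LIF withdrawal reached 4.2. Without ES replicate 1, Platr3 was also 2-fold higher, in both derived libraries, giving 4 transcripts against 3 after LIF withdrawal and a range of 1 to 2 in EB. In the strand-clear set, which holds 6 of the 9 transcripts and not Lncenc1, limma also called Kis2 lower in EB. Of the other listed genes not called in the same comparison over all genes, it called Klf2 lower after LIF withdrawal, and in EB Tcl1, Zic2, Dcn, Pdgfrb and Col3a1 higher and Etv4 lower. The split of EB calls was 62 higher and 0 lower, against 104 and 53 in the strand-clear set and 104 and 34 without a filter. Over all genes, limma's 1203 calls after LIF withdrawal became 395 at 5 FPKM or more and 207 in the strand-clear set, and its 62 calls in EB became 131 with a pseudocount of 0.1, 138 without a filter, 41 at 5 FPKM or more and 157 in the strand-clear set. The 2339 genes that differed 2-fold or more from each ES library after LIF withdrawal became 1517 as a ratio of FPKM + 1 and 431 in the strand-clear set, with a range of 2630 to 3181 with 1 ES library left out. Of these the 415 lower genes became 131 as a ratio of FPKM + 1, 109 in the strand-clear set and 984 without ES replicate 2. The 957 in EB became 371 and 357, with a range of 1249 to 1841 with 1 ES library left out. The cause of these moves was not tested. Without an ES replicate limma has no residual degrees of freedom, so no such test was run. No paired analysis was possible because only the ES libraries carry replicate numbers. Platr23 in EB and ES cells, at 3 to 6 fragments, and Platr3 and Platr20, at 15 to 53, are limited by depth.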

Other observations

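Other long non-coding RNAs described in ES cells were read from a list of 20 names, of which 17 were in the table and 14 were tested. Limma called Xist, the RNA that silences the X chromosome, higher after LIF withdrawal, as it did 7.32% of all genes. Xist was at 14.4 FPKM after LIF withdrawal and 1.18 in EB, against 1.37 ± 0.133 in ES cells (SD, n = 2). Xist is covered by Tsix, which is transcribed from the other strand and was at 6.97, 8.44 and 6.91 ± 0.495 FPKM, so the strand of the reads at Xist is uncertain. In EB limma called 0 of the 14, beside 0.396% of all genes. Gas5 and Snhg3, hosts of small nucleolar RNAs, were the most abundant, with Gas5 at 244 FPKM after LIF withdrawal, 287 in EB and 292 ± 10.2 in ES cells and Snhg3 at 97.7, 65.3 and 92.5 ± 8.56 FPKM. By size 1 of the 14 was higher (Xist) and 1 lower (Lncpint) after LIF withdrawal, beside 12.3% and 2.65% of all genes. In EB 1 was higher (Sox2ot) and 1 lower (Halr1), beside 3.58% and 2.53%. Nothing is read from these counts. Lncpint was at 1.12 FPKM after LIF withdrawal and 4.2 in EB, against 4.49 and 3.83 in ES cells. Sox2ot was at 8.59 and 11.3 FPKM in LIF withdrawal and EB, and at 5.4 and 5.35 FPKM in ES cells. Both lie over genes of the opposite strand. Halr1, a transcript beside the Hoxa cluster, was at 6.27 FPKM after LIF withdrawal and 4.84 in EB, against 11.8 and 13.7 in ES cells. Lncpint, Sox2ot and Halr1 were chosen after their values were seen.

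The long non-coding genes next to Platr4 on its strand, chosen after their values were seen, are given beside it. Gm40040, 1633 nt downstream, was at 4.78 FPKM after LIF withdrawal and 9.42 in EB, against 9.88 and 9.28 in ES cells. 2400006E01Rik, 28055 nt upstream, was at 11.3 and 12.2 FPKM in LIF withdrawal and EB, and at 17.4 and 22.8 FPKM in ES cells, while Platr4 was below both ES libraries in neither derived library.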
